A study of Mus musculus with 7 samples.

Results

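The miR-181 family in the mouse comprises mature microRNAs (miRNAs) cut from the hairpins miR-181a, b, c and d. Every row of the deposited count table whose name starts with miR-181 was taken, which gave 8 of the 640 miRNAs listed. These were the 5p arms miR-181a-5p, miR-181b-5p, miR-181c-5p and miR-181d-5p and the 3p arms miR-181a-1-3p, miR-181a-2-3p, miR-181b-2-3p and miR-181c-3p. Small RNA bound to Argonaute 2 (Ago2) was sequenced from the plasma of C57 mice, which per the study's methods were adult males of the C57BL/6JOlaHsd line. SE mice received kainic acid into the amygdala to trigger status epilepticus (SE), followed by midazolam or lorazepam, and control mice received PBS into the amygdala. There were 3 control libraries (4 h, 8 h and 24 h) and 4 SE libraries (at 4, 8 and 24 h and after 2 weeks). Each library was made from 1 pool of plasma from 10 mice, so every condition had 1 library and no replicate, and the SE 2 weeks library was compared with the control 24 h library.

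A miRNA guides an Argonaute protein to messenger RNAs that pair with its seed, the short stretch near its 5′ end, and the bound messages are repressed. The 5p arm is the usual guide strand of a miR-181 hairpin, and the 3p arm is its less abundant partner. miR-181a is best known for setting the sensitivity of T-cell receptor signalling in developing thymocytes, and members of the family are also expressed in brain. In bulk plasma, a change in the cells that release a miRNA and a change in the RNA that each cell releases cannot be told apart.

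The sequences below are shown because they define what can and cannot be separated within the family. They were taken from RefSeq on GRCm38.p6, where all 8 members were matched, and run 5′ to 3′ with the seed (bases 2 to 8) in capitals.
miR-181a-5p: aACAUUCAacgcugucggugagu
miR-181b-5p: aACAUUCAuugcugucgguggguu
miR-181c-5p: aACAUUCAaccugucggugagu
miR-181d-5p: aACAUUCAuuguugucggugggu
miR-181a-1-3p: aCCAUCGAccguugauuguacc
miR-181c-3p: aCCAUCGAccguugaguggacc
miR-181a-2-3p: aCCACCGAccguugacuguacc
miR-181b-2-3p: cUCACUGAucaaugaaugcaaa

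The seed ACAUUCA was shared by the 4 members of the 5p arm and by no other of the 1679 mature mouse names in the reference table. The seed CCAUCGA was common to miR-181a-1-3p and miR-181c-3p. miR-181a-2-3p carried CCACCGA and miR-181b-2-3p carried UCACUGA, which in the reference table it shared with miR-181b-1-3p. The 5p members were close to each other beyond the seed. miR-181a-5p and miR-181c-5p were 1 edit apart, a base inserted or deleted, and without a gap they differed at 11 of 22 positions. miR-181b-5p and miR-181d-5p differed at 1 of 23 shared positions. miR-181a-5p differed from miR-181b-5p at 3 of 23 positions, and miR-181a-1-3p differed at 2 positions from both miR-181a-2-3p and miR-181c-3p. The read counting allowed 2 mismatches. Reads could thus have been assigned between miR-181b-5p and miR-181d-5p and across the 3p pairs. miR-181a-5p and miR-181b-5p differed at more positions than allowed. Whether a gap, as between miR-181a-5p and miR-181c-5p, was allowed is not stated. The 5p members are therefore also given as a sum.

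The family is encoded in 3 clusters of 2 hairpins each (GRCm38, GENCODE M21 annotation). Mir181a-1 (chr1:137966455-137966541) and Mir181b-1 (chr1:137966639-137966718) lie on the plus strand, 97 bases apart, in an intron of Gm4258 and overlapping an exon of the lincRNA A430106G13Rik, both on the same strand. They also lie within an intron of the lincRNA Gm26936 on the opposite strand. Mir181a-2 (chr2:38852735-38852810) and Mir181b-2 (chr2:38853830-38853918) lie on the plus strand, 1019 bases apart, opposite to an intron of the orphan nuclear receptor gene Nr6a1. Mir181c (chr8:84178873-84178961) and Mir181d (chr8:84178716-84178787) lie on the minus strand, 85 bases apart, in an intron of Nanos3 on the same strand. miR-181a-5p and miR-181b-5p are each encoded by 2 loci with identical mature sequence, so only 3p arms could tell the loci apart. For miR-181b they could not do so here, since miR-181b-1-3p had no row in the count table. Its sequence is near-identical to that of miR-181b-2-3p, so its reads could have been counted there. The 2 hairpins that give miR-181a-5p show the identical 5p and differing 3p arms, with the mature arms in capitals.
Mir181a-1: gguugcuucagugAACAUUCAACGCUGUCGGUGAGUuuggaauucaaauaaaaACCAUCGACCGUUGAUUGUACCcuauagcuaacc
Mir181a-2: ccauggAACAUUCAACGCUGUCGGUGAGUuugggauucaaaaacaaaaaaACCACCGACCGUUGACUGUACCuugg

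The libraries held between 2043220 and 5405357 counts, and miR-486b-5p, which is abundant in red blood cells, took 62.5% to 76.1% of them. The family held 0.886% of the counts in the control 4 h library and between 1.21% and 1.94% in the other 6. The control 4 h library stood apart, with the fewest counts (2043220) and the fewest miRNAs with any count (232, against 314 to 399 elsewhere). Low counts in each library gathered around a single value, the low-count mode, which was 102 in the control 4 h library and 33.1 to 60.2 in the others. If this mode is taken as the reads that came from 1 amplified molecule, which was not tested, a count divided by it estimates the molecules behind a value. Intervals below are given on that scale where stated and cover counting error only, not the difference between pools of mice. Levels are given as counts per 1000000 counts (CPM) after trimmed mean of M-values (TMM) scaling over the 7 libraries.

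miR-181a-5p, the main guide strand of the family, ranked between 7th and 12th by count in every library. It stood at 7995 CPM in control 4 h, 10561 CPM in control 8 h and 10655 CPM in control 24 h. It stood at 15240 CPM in SE 4 h, 11328 CPM in SE 8 h, 13242 CPM in SE 24 h and 12844 CPM in SE 2 weeks. All 4 SE libraries were thus above all 3 control libraries on this scale, by the least between SE 8 h and control 24 h. The share of all miRNAs that did so was not worked out. For the 3 acute SE libraries alone, 13 of 136 miRNAs tested (9.56%) lay above all controls. On the log2 scale the difference from the matched control was 0.93 at 4 h, 0.10 at 8 h and 0.31 at 24 h, and it was 0.27 at 2 weeks against control 24 h. Only the 4 h difference was past the 1.5-fold rule used throughout (at least 50 CPM in either library), and its interval on estimated molecules ran from 0.68 to 1.18. The control 4 h library carried the lowest miR-181a-5p value of all, and against the mean of control 8 h and 24 h the SE 4 h difference was 0.52, short of 1.5-fold. Between control libraries miR-181a-5p differed by -0.40 (4 h against 8 h), -0.41 (4 h against 24 h) and -0.01 (8 h against 24 h), all within 1.5-fold.

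**Figure D1:**
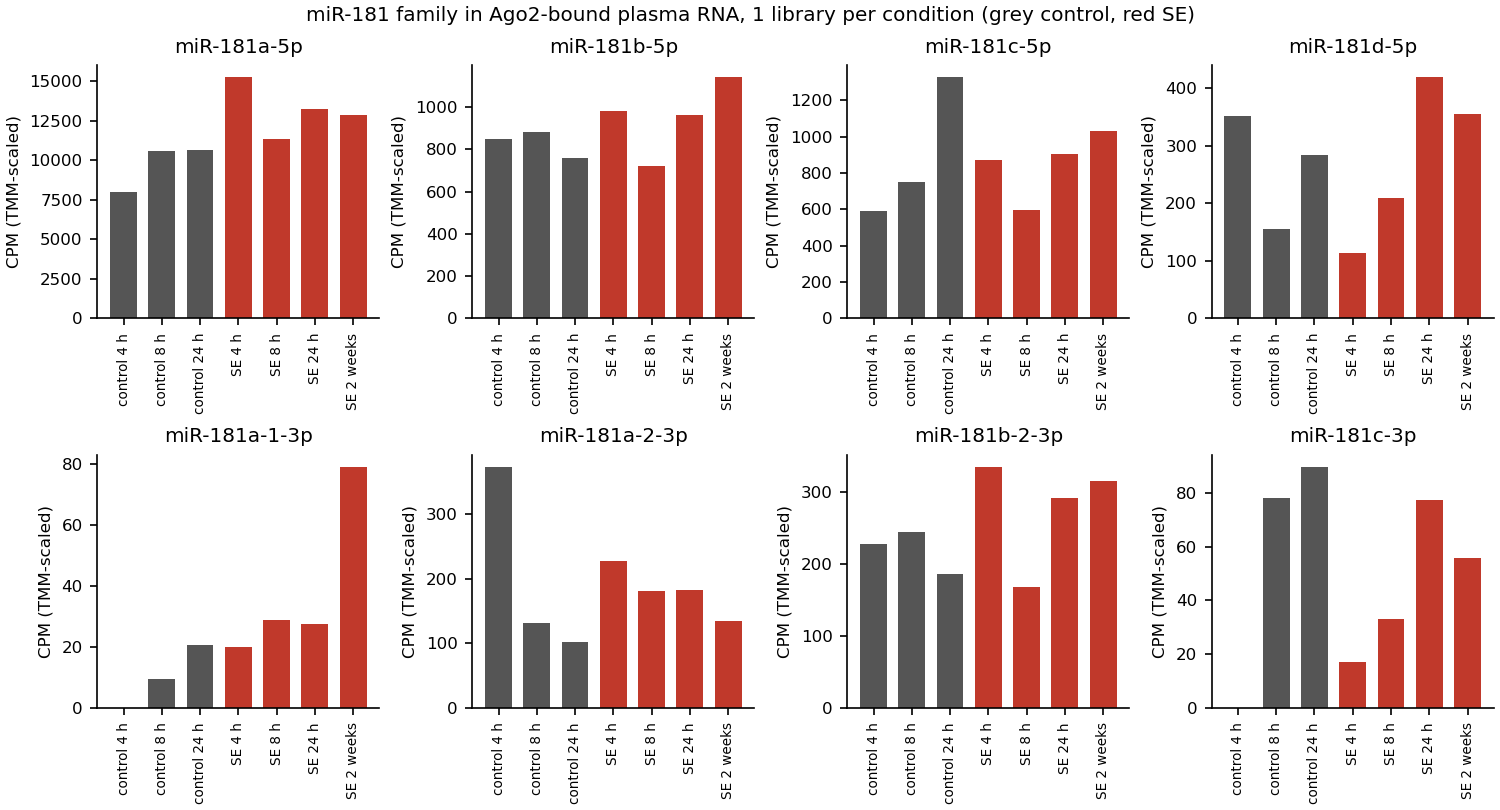
TMM-scaled CPM (y axis, from 0, with its own range in each panel) of the 8 members in the 7 libraries (x axis), control in grey and SE in red, each bar 1 library. miR-181a-5p is between 7995 and 10655 in the controls and between 11328 and 15240 after SE, while the other members overlap or split by library.

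The separation of miR-181a-5p depended on how libraries were scaled. With DESeq2 size factors the 3 controls ranged up to 11794 CPM and the lowest SE library stood at 11906 CPM, so the groups still did not overlap. With these factors, 12 of 136 miRNAs tested (8.82%) had all 3 acute SE libraries above all controls, and 15 had all below. With library size only, miR-181a-5p stood at 12903 CPM in control 8 h and at 9987 CPM in SE 24 h, so the groups overlapped. The 24 h difference was -0.30 on the log2 scale with library size only, where the median of all 144 miRNAs tested was -0.64, and relative to that median miR-181a-5p was 0.33 higher. With TMM the corresponding relative difference was 0.28. The relative differences at 4 h were 0.99 with TMM and 0.87 with library size only, at 8 h they were -0.13 and -0.10, and at 2 weeks 0.26 and 0.26. A change of scaling moves all log2 differences of a comparison by nearly the same amount, so these relative differences were alike by construction. They varied mainly because different miRNAs reached 50 CPM under each scaling. They therefore cannot show whether the separation of the groups holds under another scaling.

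**Figure D2:**
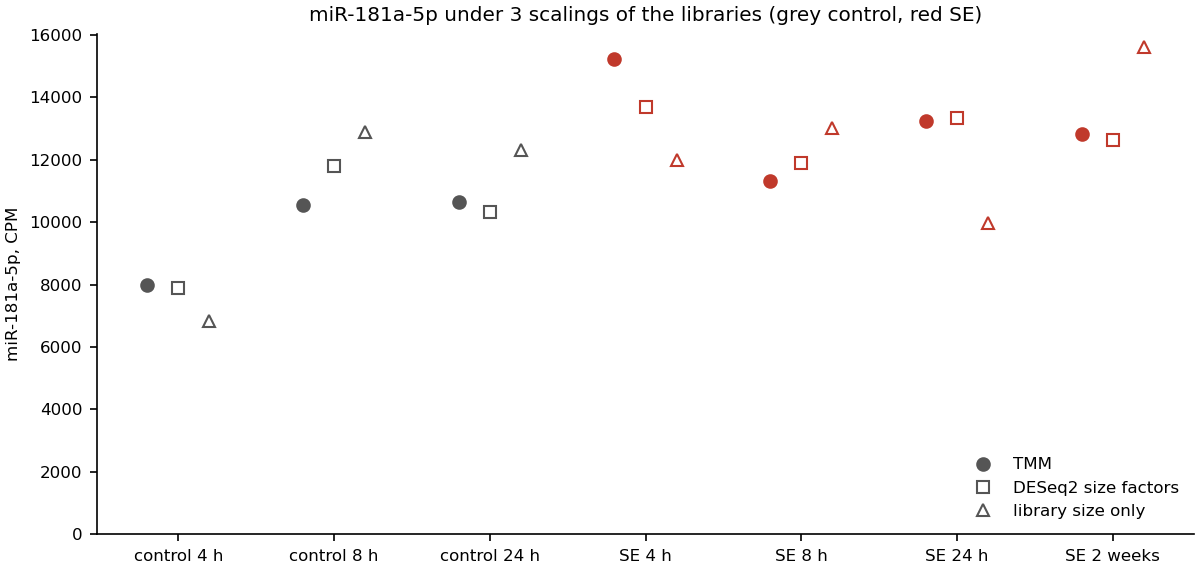
miR-181a-5p in CPM (y axis, from 0) in the 7 libraries (x axis) with TMM scaling (filled circles), DESeq2 size factors (squares) and library size only (triangles), control in grey and SE in red. SE 24 h stands at 13242 with TMM and at 9987 with library size only, below the control 24 h library at 12320 on the same scale.

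The design allows the 3 acute SE libraries to be set against the 3 control libraries, with time-points standing in for replicates, so that the spread holds time as well as pool and library. Among the 136 miRNAs that reached 50 CPM in 3 or more of these 6 libraries, 9.56% had every acute SE library above every control and 7.35% had every one below. With library size only these shares were 3.68% and 14.7%, and no member had all acute SE libraries above all controls. With TMM, miR-181a-5p was the only one of 7 members tested with all acute SE libraries above all controls, and no member had all below. Its mean was 13270 ± 1956 CPM (SD, n = 3) after SE and 9737 ± 1509 CPM (SD, n = 3) in controls. The edgeR quasi-likelihood test with Benjamini-Hochberg adjustment over the 136 miRNAs gave a log2 difference of 0.41 (adjusted p = 0.578), so the difference did not pass the test against the spread between libraries of 1 treatment. The same edgeR test called 0 of the 136 miRNAs (0%), with 15 at an unadjusted p under 0.05, none of them a member. A DESeq2 Wald test called 4 and the edgeR likelihood ratio test called 3, again no member. The other members had edgeR adjusted p-values of 0.885 to 0.978 and log2 differences from -0.47 to 0.23. For the 5p members summed, the difference was 0.32 with an edgeR adjusted p of 0.719.

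miR-181b-5p shares the seed of miR-181a-5p and is transcribed from the same clusters. Its CPM was 849, 882 and 759 in control 4 h, 8 h and 24 h, and 984, 724, 964 and 1142 in SE 4 h, SE 8 h, SE 24 h and SE 2 weeks. The 3 highest values were all SE libraries, but SE 8 h was the lowest of the 7, so the groups overlapped. It had the narrowest range of the members, 1.58-fold from the lowest to the highest library, where miR-181a-5p spanned 1.91-fold. The log2 difference from the matched control was 0.21 for SE 4 h, -0.29 for SE 8 h, 0.34 for SE 24 h and 0.59 for SE 2 weeks. The 2 weeks value was the only one past 1.5-fold, at 1.503-fold, just over the rule.

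miR-181c-5p, from the cluster on chromosome 8, had its highest level in a control library. Its CPM was 589, 752 and 1328 in control 4 h, 8 h and 24 h, and 873, 596, 904 and 1034 in SE 4 h, SE 8 h, SE 24 h and SE 2 weeks. The log2 difference was 0.57 for SE 4 h, -0.34 for SE 8 h, -0.55 for SE 24 h and -0.36 for SE 2 weeks, none past 1.5-fold. Control 4 h differed from control 24 h by -1.17 and control 8 h from control 24 h by -0.82, more than any SE library differed from its control.

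miR-181d-5p, the neighbour of miR-181c-5p and near-identical to miR-181b-5p, was the least abundant 5p member in every library. Its CPM was 351, 155 and 284 in control 4 h, 8 h and 24 h, and 114, 208, 419 and 354 in SE 4 h, SE 8 h, SE 24 h and SE 2 weeks. The SE libraries held both the lowest and the highest value. At 4 h its log2 difference was -1.63 (interval on estimated molecules -3.03 to -0.23), while miR-181a-5p in the same comparison was higher. Against the mean of control 8 h and 24 h this difference was -0.95, still past 1.5-fold. The other differences were 0.43 (8 h), 0.56 (24 h) and 0.32 (2 weeks), all within 1.5-fold, and control 4 h exceeded control 8 h by 1.18.

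Summed, the 5p members carrying the seed ACAUUCA stood at 9784, 12350 and 13026 CPM in control 4 h, 8 h and 24 h. The sum was 17210, 12856, 15529 and 15374 CPM in SE 4 h, SE 8 h, SE 24 h and SE 2 weeks. SE 8 h lay below control 24 h, so the sum did not separate the groups as miR-181a-5p alone did. The log2 difference was 0.81 for SE 4 h, past 1.5-fold, and 0.06, 0.25 and 0.24 for the later libraries in order of time. Against the mean of control 8 h and 24 h, the 4 h difference of the sum was 0.44.

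The share of each 5p member in the family does not depend on library scaling, since each library is divided by its own total. miR-181a-5p made up 81.7%, 85.5% and 81.8% of the 5p counts in control 4 h, 8 h and 24 h, and 88.6%, 88.1%, 85.3% and 83.5% in SE 4 h, SE 8 h, SE 24 h and SE 2 weeks. SE 4 h and 8 h had the highest shares, and SE 24 h lay just below control 8 h. The 95% Wilson intervals on estimated molecules were 87.1% to 89.9% for SE 4 h and 75.2% to 86.8% for control 4 h. At 8 h the intervals were 85.8% to 90.1% for SE and 83.0% to 87.7% for control, which overlapped.

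The remainder of the 5p counts was split unevenly among the other members. miR-181c-5p was 10.2% in control 24 h (interval on estimated molecules 8.41% to 12.3%) and between 4.63% and 6.73% in the other 6 libraries, so control 24 h was the library that stood apart. miR-181d-5p was 0.660% in SE 4 h (0.385% to 1.13%) and 3.59% in control 4 h (1.65% to 7.62%). Per 100 counts of its near-identical relative miR-181b-5p, miR-181d-5p had between 11.6 (SE 4 h) and 43.4 (SE 24 h), and 41.4 in control 4 h. Both extremes were SE libraries, while the controls ran from 17.6 to 41.4. miR-181b-5p itself held 5.63% to 8.68% of the 5p counts.

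**Figure D3:**
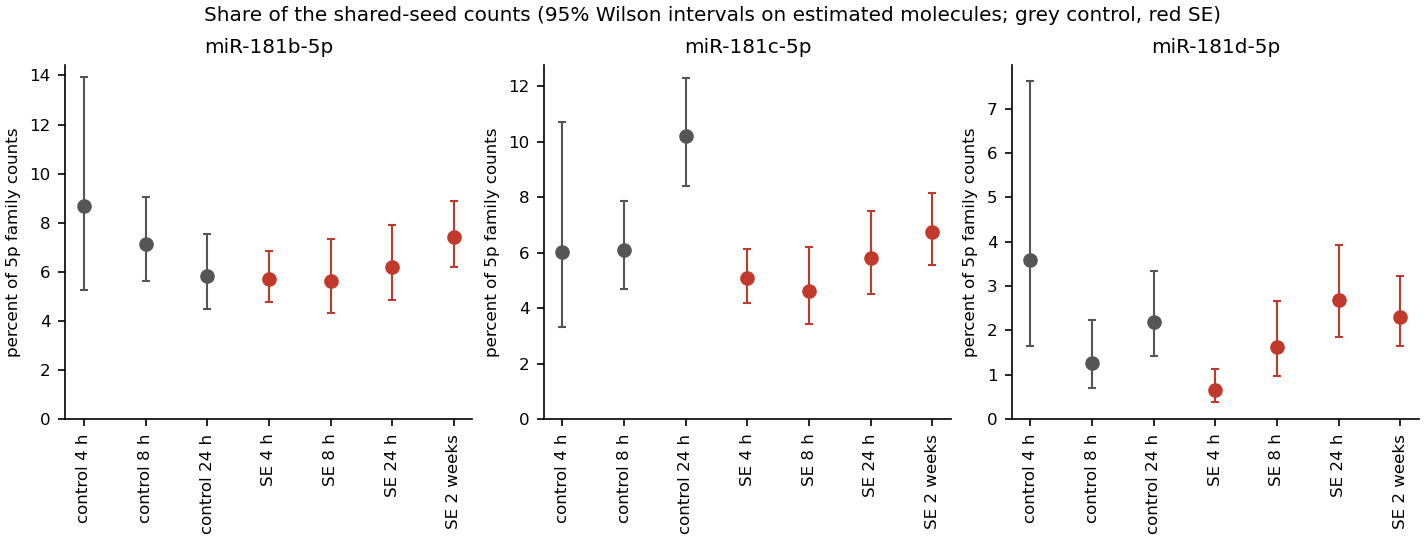
Share of miR-181b-5p, miR-181c-5p and miR-181d-5p (percent of 5p family counts, y axis from 0) in the 7 libraries (x axis), control in grey and SE in red, with 95% Wilson intervals on estimated molecules. miR-181c-5p is 10.2% in control 24 h and at most 6.73% elsewhere, and miR-181d-5p is lowest in SE 4 h at 0.660%.

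The 3p arms made up 5.79% of the family counts in control 4 h and 2.97% to 3.66% in the other 6 libraries. miR-181a-2-3p, the passenger arm of the locus on chromosome 2, had 374 CPM in control 4 h, 131 CPM in control 8 h and 103 CPM in control 24 h. It had 228, 182, 182 and 134 CPM in SE 4 h, SE 8 h, SE 24 h and SE 2 weeks. The control 4 h library was the highest and the other 2 controls were the lowest of the 7, so the SE libraries lay between the controls. The log2 difference was accordingly -0.71 at 4 h and 0.83 at 24 h, both past 1.5-fold in opposite directions, with 0.47 at 8 h and 0.39 at 2 weeks within it. Against the mean of control 8 h and 24 h the SE 4 h difference was 0.96, the reverse direction. On estimated molecules the 4 h interval ran from -1.96 to 0.54 and the 24 h interval from -0.52 to 2.17, both across 0.

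miR-181b-2-3p is named for the other hairpin of that cluster, but its row may also hold reads of miR-181b-1-3p from chromosome 1. It had 227, 244 and 185 CPM in control 4 h, 8 h and 24 h. After SE it had 335, 167, 291 and 315 CPM in SE 4 h, SE 8 h, SE 24 h and SE 2 weeks. As for miR-181b-5p, the 3 highest libraries were SE and SE 8 h was the lowest of all. The log2 difference was 0.56 for SE 4 h, -0.55 for SE 8 h, 0.65 for SE 24 h and 0.76 for SE 2 weeks, of which the last 2 were past 1.5-fold. Its ratio to miR-181b-5p stayed between 23.1 and 34.0 per 100 over the 7 libraries. The 2 levels had a Pearson r of 0.94 over those libraries (log2 CPM). This r is a description of 7 points that share library and depth and can share a locus. For miR-181a-2-3p and miR-181a-5p, r was -0.30 and the ratio lay between 0.963 and 4.68 per 100.

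miR-181a-1-3p and miR-181c-3p, which share a seed, were both at 0 counts in control 4 h. Counted on reads, this allows a level of up to 1.72 CPM (3 counts). The low-count mode of that library was 102, so on estimated molecules the level allowed is higher. miR-181a-1-3p had 9.51 and 20.5 CPM in control 8 h and 24 h and 20.0, 28.8, 27.5 and 79.0 CPM in SE 4 h, SE 8 h, SE 24 h and SE 2 weeks. It reached 50 CPM in SE 2 weeks only, where it was 1.94 above control 24 h on the log2 scale. That value compares 244 with 81 counts, or 7.37 with 1.47 times the low-count mode, and its interval on estimated molecules ran from -0.61 to 4.50. miR-181c-3p had 78.4 and 90.0 CPM in control 8 h and 24 h and 17.1, 33.2, 77.4 and 55.7 CPM in SE 4 h, SE 8 h, SE 24 h and SE 2 weeks. Its log2 difference was -1.24 at 8 h and -0.69 at 2 weeks, both past 1.5-fold, and -0.22 at 24 h. The intervals on estimated molecules crossed 0 in all 3 comparisons. No fold change was formed for either at 4 h.

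The 3p arms separate the miR-181a loci as far as the counting kept them apart, since they differ at 2 positions. miR-181a-1-3p made up 0%, 6.75% and 16.7% of the miR-181a 3p counts in control 4 h, 8 h and 24 h, and 8.04%, 13.7%, 13.1% and 37.0% in SE 4 h, SE 8 h, SE 24 h and SE 2 weeks. SE 2 weeks had the highest share, and miR-181a-2-3p, from chromosome 2, held the larger part in all libraries. The interval on estimated molecules was 19.6% to 58.7% in SE 2 weeks and 3.90% to 49.7% in control 24 h, so on that scale the difference was not detectable at this depth. Counted on reads instead, the intervals were 33.4% to 40.8% and 13.6% to 20.2%, and did not overlap.

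**Figure D4:**
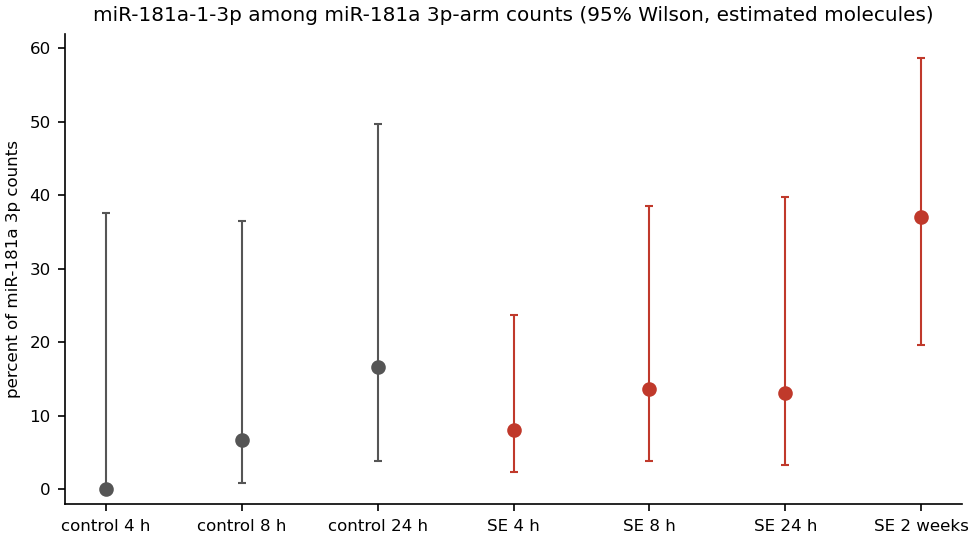
Share of miR-181a-1-3p in the miR-181a 3p-arm counts (percent, y axis) in the 7 libraries (x axis), control in grey and SE in red, with 95% Wilson intervals on estimated molecules. SE 2 weeks is highest at 37.0%, and its interval overlaps that of control 24 h at 16.7%.

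Counted over the family at 4 h, 1 of 6 members tested was higher (miR-181a-5p) and 2 were lower (miR-181a-2-3p, miR-181d-5p), where 32.3% of all 189 miRNAs tested were higher and 34.9% lower. At 8 h, 0 of 7 were higher and 1 was lower (miR-181c-3p), against 35.1% higher and 14.9% lower of 154. At 24 h, 2 of 7 were higher (miR-181a-2-3p, miR-181b-2-3p) and 0 lower, against 24.8% and 19.9% of 141 (35 higher and 28 lower). With library size only, 13 miRNAs were higher and 75 lower at 24 h, and 2 other members were past 1.5-fold, miR-181c-5p (-1.17) and miR-181c-3p (-0.83), while miR-181a-2-3p stood at 0.21 and miR-181b-2-3p at 0.03 on the log2 scale. At 2 weeks, 3 of 8 were higher (miR-181a-1-3p, miR-181b-2-3p, miR-181b-5p) and 1 was lower (miR-181c-3p), against 18.6% and 13.1% of 145. The comparisons at 24 h and 2 weeks share the control 24 h library. In either direction fewer members passed than the overall share at 4 h, 8 h and 24 h and more at 2 weeks, and no member was past 1.5-fold in the same direction in all 4 comparisons.

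Control libraries also differed from each other by the same rule. Of the 177 miRNAs tested in control 4 h against 8 h, 59.3% were past 1.5-fold in either direction, with 3 of 7 members among them. In control 4 h against 24 h this was 69.6% of 181, with 3 of 7 members, and in control 8 h against 24 h it was 45.4% of 141, with 2 of 7 members. miR-181a-5p, miR-181b-5p and miR-181b-2-3p were past the rule in no pair of control libraries. miR-181c-3p counted as lower in control 4 h, where it was at 0. Against a floor of 3 counts in that library, this was at least 45.5-fold against control 8 h and at least 52.3-fold against control 24 h. These bounds treat reads as independent and do not hold on estimated molecules. On that scale the compared values were only 5.61 (control 8 h) and 6.44 (control 24 h) times the low-count mode, and no bound was formed.

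**Figure D5:**
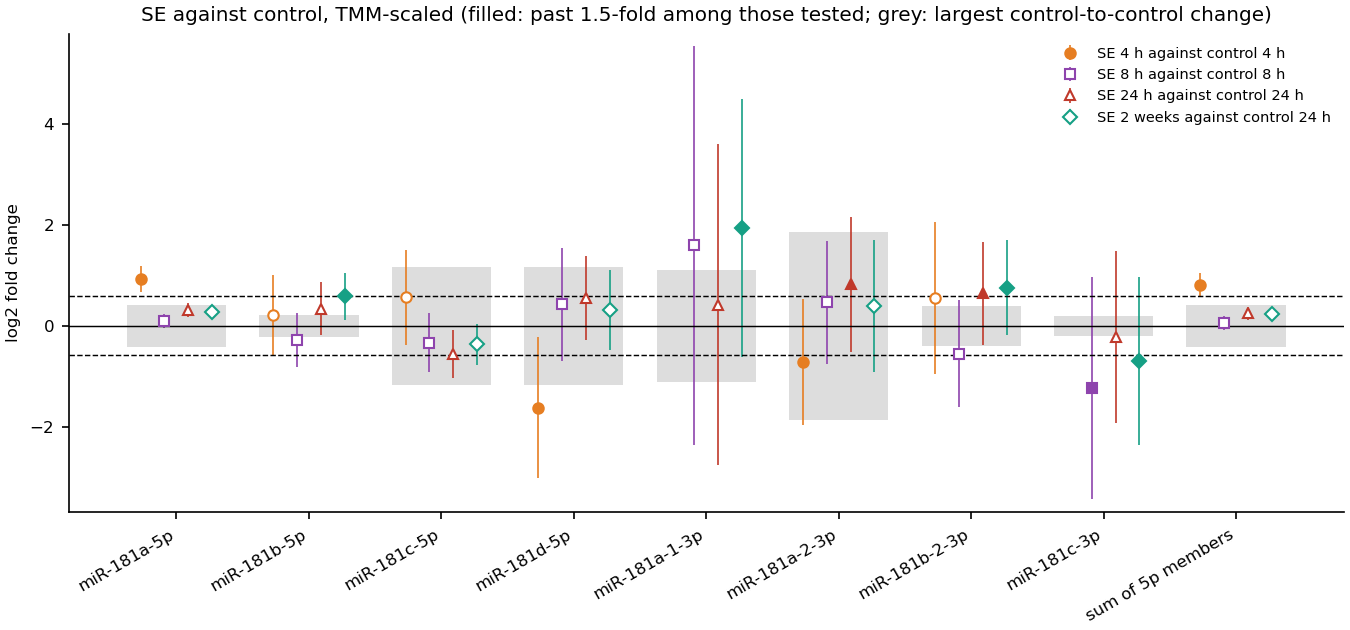
Log2 fold change (y axis) of each member and of the summed 5p members (x axis) in the 4 SE comparisons, with 95% intervals on estimated molecules. Filled symbols are past 1.5-fold (dashed lines) among those tested, and grey bars span the largest change of that member between 2 control libraries (pairs with a 0 left out). miR-181a-5p at 4 h (0.93) lies outside its grey bar of 0.41, and most values of miR-181c-5p, miR-181d-5p and miR-181a-2-3p lie inside theirs. Among others outside, in mixed directions, are miR-181b-2-3p (0.56, -0.55, 0.65 and 0.76 in order of time, bar 0.40) and miR-181b-5p. The latter is outside its bar of 0.22 at 8 h (-0.29), 24 h (0.34) and 2 weeks (0.59).

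Of 96 other miRNAs with at least 50 CPM in all libraries, the 5 most like miR-181a-5p over the 7 libraries (Pearson r of log2 TMM CPM) were miR-532-5p (r = 0.86), miR-186-5p (0.83), miR-30e-5p (0.83), miR-30d-5p (0.83) and miR-25-3p (0.80). miR-532-5p, the closest, ran from 116 to 205 CPM in the controls and from 282 to 366 CPM after SE. The least alike were let-7b-5p (r = -0.96), which ran from 579 to 855 CPM in the controls and from 461 to 544 CPM after SE, and miR-6236 (r = -0.82). With DESeq2 size factors these 2 negative values were -0.92 and -0.67, but with library size only they were -0.04 and 0.09, so they depended on the scaling. miR-532-5p stayed at 0.90 with DESeq2 size factors and at 0.87 with library size only. All these values rest on 7 points and are descriptions. The miRNAs were chosen by correlation over the same 7 libraries, in which miR-181a-5p itself was higher after SE with TMM. Their own differences between SE and control therefore follow in part from that choice.

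Because miR-181a-5p is also a miRNA of blood cells and was assigned by the study to its microglia class, lists for such sources were set beside it. The study also listed miR-181b-5p under oligodendrocytes, and miR-181c-5p and miR-181c-3p as brain-enriched. No oligodendrocyte list was used here. The counts below are to be read against the shares of all miRNAs tested, which were 32.3% higher and 34.9% lower at 4 h, 35.1% and 14.9% at 8 h, 24.8% and 19.9% at 24 h, and 18.6% and 13.1% at 2 weeks. The medians over all tested were -0.06, 0.23, 0.04 and 0.01 on the log2 scale in the same order. These and the list medians below are with TMM, and those at 24 h depended on the scaling. With library size only the 24 h median over all tested was -0.64. The list medians were then -1.19 (leukocyte), -0.70 (platelet and endothelium), -0.84 (microglia class) and 0.18 (erythroid).

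In the leukocyte list of 8 miRNAs, 2 of 7 tested were higher and 1 lower at 4 h (median log2 difference 0.46), and 1 of 7 was higher and 1 lower at 8 h (median 0.15). At 24 h, 0 of 6 were higher and 3 lower (median -0.58), and at 2 weeks 1 of 7 was higher and 0 lower (median 0.22). Its summed level ran from 6207 to 11482 CPM in controls and from 7168 to 11304 CPM after SE, and miR-155-5p was at 0 in both 4 h libraries. In the platelet and endothelium list, 3 of 4 were higher and 0 lower at 4 h (median 1.06 with miR-222-3p, at 0 in control 4 h, at its bound), and 0 of 4 were called in either direction at 8 h (median 0.16). In that list 0 of 4 were higher and 1 lower both at 24 h (median -0.08) and at 2 weeks (median -0.37), and its sum ran from 1654 to 3008 CPM in controls and from 2314 to 3001 CPM after SE. In the microglia class without miR-181a-5p, 5 of 12 tested were higher and 0 lower at 4 h (median 0.30), and 1 of 13 was higher and 1 lower at 8 h (median -0.05). At 24 h, 1 of 13 was higher and 2 lower (median -0.22), and at 2 weeks 0 of 13 were higher and 2 lower (median -0.20). This class shares miR-142a-3p, miR-142a-5p and miR-150-5p with the leukocyte list, so their counts and sums overlap. The study assigned this class from published expression data to miRNAs it detected in these libraries. Its sum ran from 23547 to 42865 CPM in controls and from 25693 to 41816 CPM after SE.

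Few miRNAs of the brain and erythroid lists were tested. Of 6 listed brain miRNAs, at most 2 were tested in any comparison, miR-124-3p was at 0 in all but SE 24 h (49 counts), and miR-128-3p carried most of the sum, which ran from 1142 to 2280 CPM in controls and from 1294 to 1953 CPM after SE. In the brain list 0 of 2 were higher and 1 lower at 4 h, 1 of 2 was higher and 0 lower at 8 h, and the 1 tested at 24 h and at 2 weeks was within 1.5-fold. Of the erythroid list, 2 of 3 tested were higher and 0 lower both at 4 h (median 6.73, with 2 of 3 at their bound) and at 24 h (median 0.80). In that list 0 of 3 were higher and 1 lower both at 8 h (median -0.02) and at 2 weeks (median -0.31). The erythroid miRNAs higher at 4 h were miR-144-3p and miR-144-5p, with 0 and 1 counts in control 4 h. All list medians at 4 h share the control 4 h library with the miR-181a-5p difference, and the part of these sources in the levels of the family was not tested.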

How the data were processed

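Ago2 was immunoprecipitated from pooled plasma, libraries were made with the TruSeq small RNA kit, and the authors trimmed, size-selected and aligned reads with Chimera (BLASTn to miRBase, 2 mismatches allowed). The deposited values are raw counts per mature miRNA, not normalised. They were scaled here by TMM with edgeR 4.0.16 in R 4.3.3, with log2 differences at a prior count of 0.125. With 1 library per condition a difference was called at 1.5-fold with at least 50 CPM in either library, without a p-value, and the study's set dispersion (BCV 0.1) served as an alternative. The 3 acute SE and 3 control libraries were compared with edgeR's quasi-likelihood test. DESeq2 1.42.0 gave other size factors and tests. The low-count mode was the peak of a kernel density of log counts between 6 and 300 (bandwidth 0.15). Scripts were tested on simulated data. Every family row was named, with the 5 most and 2 least correlated miRNAs and list members where a list is reported. Members and lists were chosen with earlier results of these data known. Nothing in the sources used here gave the version of Chimera.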

Additional observations from a re-analysis of the deposited data

Results flagged for a closer look

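miR-181a-2-3p was past 1.5-fold in opposite directions at different time-points, with a log2 difference of -0.71 at 4 h and 0.83 at 24 h. With 1 library per condition the difference between the time-points was not tested. The control 4 h library held 374 CPM of it, above control 8 h by 1.51 and above control 24 h by 1.87 on the log2 scale, and the SE libraries held 134 to 228 CPM.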

How the results depend on the processing

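Over 326 alternative values of the members' fold changes, 276 stayed on the same side of 1.5-fold, 29 lost the call, 15 gained one and 6 reversed. The 276 overstates stability. For a value within 1.5-fold, the set BCV, the 2-fold rule and the changed filters reuse the same value and could not change its label. Signs of values within 1.5-fold also changed, as with library size only at 24 h, where miR-181a-5p was -0.30, miR-181b-5p -0.27, miR-181d-5p -0.057 and the 5p sum -0.36. The 6 reversals came with another control. Against the mean of the 3 controls miR-181a-2-3p was 0.17 (4 h), -0.16 (24 h) and -0.59 (2 weeks), and against control 4 h it was -1.48 at 2 weeks, where miR-181c-5p was 0.81. Against the mean of control 8 h and 24 h, chosen after seeing the data, miR-181a-2-3p was 0.96 at 4 h, miR-181a-5p was 0.52 and the 5p sum was 0.44. The 5p sum at 4 h was 0.55 against the mean of the 3 controls. At 2 weeks against control 4 h, miR-181a-5p was 0.68 and the 5p sum 0.65, past 1.5-fold. miR-181a-5p at 4 h (0.93) was no longer called with BCV 0.4 or at 2-fold. The members called at 4 h were 7 without miR-486b-5p (which raises the CPM of all others), 5 without the filter, 1 at 2-fold and 0 at BCV 0.4. Both the 7 and the 5 include miR-181a-1-3p and miR-181c-3p, which were at 0 counts in control 4 h. At 8 h the members called were 2 with library size only, DESeq2 factors, TMM of the compared libraries or no filter. They were 3 without miR-486b-5p, and 0 with 50 CPM in both or BCV 0.4. At 24 h they were 0 at BCV 0.4 or 2-fold and 1 against the mean of controls. At 2 weeks they were 1 at BCV 0.4 or 2-fold and 2 against the mean of controls or control 8 h. Over all miRNAs at 8 h, 52 were higher and 31 lower of 164 with library size only, and 50 and 31 of 160 with DESeq2 factors. For most other settings the share of all miRNAs called was not worked out, so these counts are not read as a result about the family.

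In the test of 3 acute SE against 3 control libraries, no member was called in any of 12 alternative fits (81 member values), and miR-181a-5p had log2 differences of 0.13 to 0.56 with adjusted p from 0.452 to 0.993. Libraries of the same time-point were blocked as an alternative, with no call gained. With that block miR-181a-5p was 0.42, and miR-181a-2-3p (0.17) and miR-181c-3p (0.60) changed sign. The 5p sum, added after seeing the data, was 0.34 with the block. With library size only miR-181b-2-3p was -0.067 and miR-181b-5p -0.20. Leaving out each library in turn gave -0.35 to 0.71 for miR-181a-2-3p, -0.0084 to 0.20 for miR-181b-5p, -0.41 to 0.18 for miR-181c-5p and -0.66 to 0.26 for miR-181d-5p. Over all miRNAs, 3 were called by the likelihood ratio test, 3 without the filter and 4 by DESeq2. The causes of these changes were not tested. Shares within the family are the same on reads and on estimated molecules by construction, but the molecules behind 3p arms are few.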
